A study of Mus musculus with 12 samples.

Results

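A set of 36 protein-coding genes was examined that were detectable in every Fra1 mutant liver and close to silent in the livers of Fra1 controls. The genes were chosen on the Fra1 libraries alone: they reached 1 CPM (the gene's count over the library's total count, scaled to a total of 1000000) or more in each Fra1 mutant and averaged 0.5 CPM or less in the Fra1 controls. Of 21926 protein-coding genes in the table, 44 met both thresholds, and 8 of these, among them the transgene's own gene Fosl1, were left out by name. The Fra1 values of the remaining 36 genes are therefore a description, and the Fra2 strain, which took no part in the choice, was used to test them.

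The 12 libraries were poly(A)-selected liver RNA of adult male C57BL/6 mice in 4 groups of 3. Fra1 mutants (strain Fra1hep) carried an induced Fra-1 transgene and were set against their Fra1hep littermate controls; Fra2 mutants (strain Fra2hep) carried an induced Fra-2 transgene and were set against their Fra2hep littermate controls. All 4 groups were taken off doxycycline at 3 weeks of age, which turned the transgene on in the mutants, and titles place sampling 2 months later. However, a time of 9 months stands in the treatment field of the Fra2 mutants, against 2 months in that of their controls, so age and transgene cannot be told apart in that strain if the treatment label is right. The labels call the tissue mostly hepatocyte and do not give the promoter that drives the transgenes or the alleles that the controls carry.

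Fra-1 and Fra-2 are Fos-related subunits of AP-1, a transcription factor that binds DNA as a pair of leucine zipper proteins, usually a Fos-related with a Jun-related one. Neither protein has a transactivation domain like that of Fos, and both can raise or lower their target genes depending on the partner and the cell. Adult hepatocytes keep many genes of other tissues at very low transcript levels, among them genes for synaptic, adrenal, testicular and intestinal proteins, and several of the 36 genes are known mainly from such tissues.

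Each library held between 16834041 and 20464807 counts, so that 1 count stood for 0.0489 to 0.0594 CPM, and a gene without a count could lie at up to 0.147 to 0.178 CPM (3 counts). These floors and the intervals given with count ratios cover counting error only. In the Fra1 mutants Fosl1 had 10.2, 10.6 and 13.7 CPM (172, 193 and 252 counts). The Fra1 controls had 0, 0 and 0.0538 CPM (0, 0 and 1 counts). Fosl2, the gene of Fra-2, stood far higher in the Fra2 mutants, at 391.5 to 425 CPM. It had 11.98, 47.3 and 14.9 CPM in the Fra2 controls. Fra2 control 2 thus stood apart for Fosl2, and Fra2 control 1 stood apart for Fosl1, with 11 counts against 1 and 1 in the other Fra2 controls. The hepatocyte list (Alb, Apoa1, Ttr, Apob, Hnf4a, Cps1, Cyp2e1 and Serpina1a) summed to 63740 to 114868 CPM in Fra1 mutants and 90291 to 114482 CPM in Fra1 controls, and to 63971 to 80219 CPM in Fra2 mutants and 106904 to 129583 CPM in Fra2 controls, where the ranges do not overlap. Alb made up most of these sums, and none of the 8 genes passed the test described further on. Their Fra2 log2 fold changes were -1.05 for Alb, -1.17 for Apoa1 and -0.69 for Ttr, but 0.88 for Apob and 0.24 for Hnf4a, with a list median of -0.02. In bulk liver, fewer cells of a type and less RNA per cell cannot be told apart.

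Promoter sequences are shown first for the genes on which the results turn, since a transcription factor was raised and the letters before the start are what a reader would compare. RefSeq windows (GRCm38.p6) were found for 24 of the 36 genes, and the 250 bases before the RefSeq start were read 5′ to 3′ on the gene's strand. The 7-letter AP-1 motif TGANTCA, which reads the same on both strands, is in capitals. It was present before 3 of the 24 genes (12.5%), against 7.25% of 16615 protein-coding genes with windows of the same length. These 3 were Fam110c (100 bases before the RefSeq start), Ypel4 (154 bases) and Plaur (69 bases), and the windows of Syt14 and Shc2 hold no match. RefSeq and GENCODE, whose gene coordinates are given with the genes, place some starts differently. Against the GENCODE start, the motif begins 7 bases inside Fam110c, 8 bases before Ypel4 and 70 bases before Plaur, while both annotations give Syt14 and Shc2 the same start. Of the other genes that passed the test described further on, Lysmd2 and Cyp21a1 had no window, and the RefSeq start of Arhgap22 lies 2797 bases inside the GENCODE gene, so its window, which holds no match, is not shown. The window of Fam110c is chr12:31073718-31073967 on the plus strand, that of Ypel4 is chr2:84733954-84734203 on the plus strand and that of Plaur is chr7:24462233-24462482 on the plus strand. The window of Syt14 is chr1:193035776-193036025 on the minus strand and that of Shc2 is chr10:79637919-79638168 on the minus strand.
Fam110c: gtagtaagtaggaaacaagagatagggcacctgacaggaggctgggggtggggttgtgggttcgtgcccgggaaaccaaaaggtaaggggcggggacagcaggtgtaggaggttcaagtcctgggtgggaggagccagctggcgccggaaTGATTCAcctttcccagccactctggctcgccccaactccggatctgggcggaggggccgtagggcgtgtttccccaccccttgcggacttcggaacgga
Ypel4: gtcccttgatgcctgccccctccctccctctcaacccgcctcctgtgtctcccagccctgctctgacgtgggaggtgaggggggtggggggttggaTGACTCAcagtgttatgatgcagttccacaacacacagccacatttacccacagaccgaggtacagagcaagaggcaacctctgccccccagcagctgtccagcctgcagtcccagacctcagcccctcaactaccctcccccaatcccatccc
Plaur: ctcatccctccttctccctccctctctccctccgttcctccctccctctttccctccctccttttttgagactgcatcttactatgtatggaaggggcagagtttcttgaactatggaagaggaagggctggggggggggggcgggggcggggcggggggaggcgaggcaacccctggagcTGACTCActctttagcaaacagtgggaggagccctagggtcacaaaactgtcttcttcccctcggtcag
Syt14: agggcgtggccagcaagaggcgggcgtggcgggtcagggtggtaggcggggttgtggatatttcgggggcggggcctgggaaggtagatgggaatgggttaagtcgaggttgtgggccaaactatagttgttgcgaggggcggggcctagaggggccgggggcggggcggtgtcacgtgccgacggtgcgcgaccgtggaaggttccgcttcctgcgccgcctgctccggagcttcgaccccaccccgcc
Shc2: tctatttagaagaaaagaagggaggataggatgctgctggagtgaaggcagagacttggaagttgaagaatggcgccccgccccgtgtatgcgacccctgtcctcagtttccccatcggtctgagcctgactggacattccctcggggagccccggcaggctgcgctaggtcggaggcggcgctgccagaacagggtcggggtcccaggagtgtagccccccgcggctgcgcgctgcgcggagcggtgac
Fam110c, Syt14 and Shc2 are printed because they passed the test in the Fra2 strain. Ypel4 and Plaur did not pass. Ypel4 is printed because it had the largest Fra2 fold change of the 36 genes, and Plaur because it is a known AP-1 target in other tissues. The printed windows include all 3 with a match among the 24, so the share with a match among them is not that of the set. A match of 7 letters is a description of the window and not a binding site, and a window without it says nothing of AP-1.

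In the Fra1 libraries that chose them, the 36 genes summed to 143, 153 and 143 CPM in the 3 mutants, against 9.98, 10.3 and 13.0 CPM in the 3 controls. The ratio of summed counts, mutants over controls, ran from 2.21 for Syn3 (57 against 27 counts) to 96.3 for Lysmd2 (828 against 9 counts), with a median of 12.01 over the 35 genes with a control count. It was 10 or more for 19 genes and under 5 for 12, so the set holds genes with large ratios beside genes that lay close to both thresholds. At the control threshold, Syn3 (0.490 CPM in Fra1 controls) and Cfap69 (0.486 CPM) lay just inside, and Syt12 (0.507 CPM) just outside. At the mutant threshold, Siglech, Cyp4f18, Plaur and Tlr8 (each 1.01 CPM in the lowest Fra1 mutant) lay just inside. Inpp4b (0.889 CPM) and Trem2 (0.871 CPM) lay just outside. The 4 genes by which the set was named, Syt14, Arhgap22, Lysmd2 and Mybl1, all met the rule, with Fra1 ratios of 74.3, 23.0, 96.3 and 8.10.

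**Figure D1:**
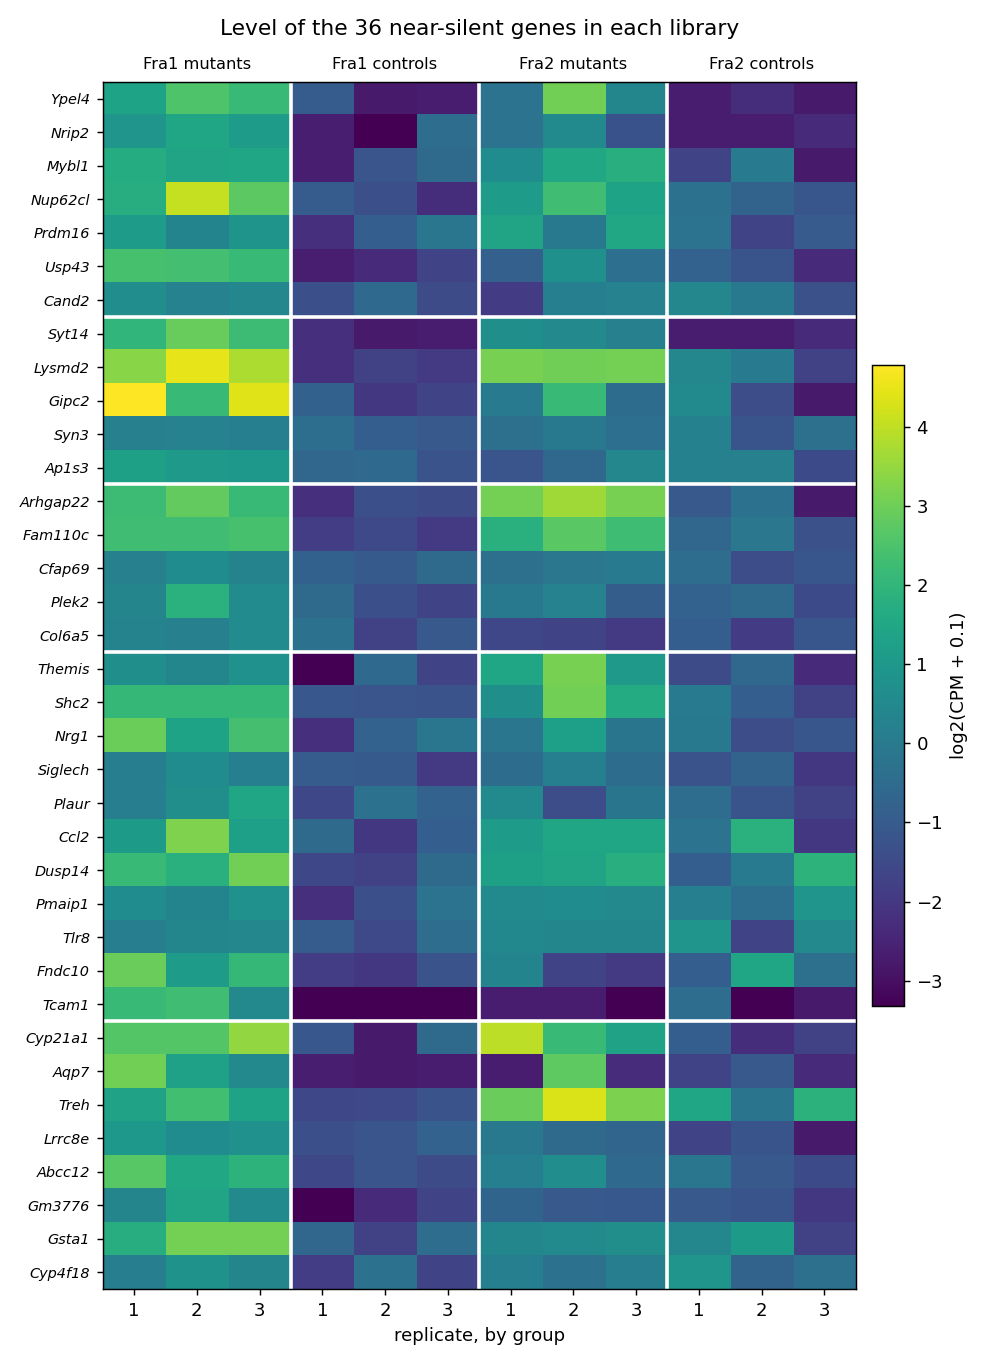
Level of each of the 36 genes in each of the 12 libraries, as log2(CPM + 0.1); columns are the 3 replicates of each group, and white lines divide groups of libraries and the 5 role groups of genes (from the top: gene regulation and protein turnover; membrane traffic and synaptic proteins; cytoskeleton, cilia and matrix; signalling; transporters, channels and enzymes). Rows such as Arhgap22, Fam110c and Lysmd2 are bright in both sets of mutants, and Tcam1 and Fndc10 are bright in the Fra1 mutants and dark in most Fra2 mutants.

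In the Fra2 strain, 6 of the 36 genes rose in the mutants and none fell. They were Fam110c, Arhgap22, Syt14, Lysmd2, Cyp21a1 and Shc2, by edgeR's quasi-likelihood test with Benjamini-Hochberg adjustment over all 14076 tested genes and a call at an adjusted p under 0.05. Among all tested genes 0.845% rose and 0.22% fell. All 36 genes entered the test through their Fra1 mutant values, so entry did not depend on the Fra2 outcome. The log2 fold change was positive for 30 of the 36, against 49.1% of all tested genes, and its median was 1.26, against -0.01 over all genes. Every Fra2 mutant lay above every Fra2 control for 16 of the 36, against 12.5% of all tested genes, and no member had every mutant below every control (5.57% of all tested genes). No member with a negative fold change had an unadjusted p under 0.05, by edgeR, DESeq2 or limma-voom. However, for 20 of the 36 the mean in Fra2 controls was at or under 0.5 CPM, so these genes had little room to fall. The lack of falls is therefore not a result about the set.

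The count of 6 holds 4 genes that passed in each of the 6 fits that left out 1 Fra2 library, and in the fit of the Fra2 libraries alone: Fam110c, Arhgap22, Syt14 and Lysmd2. Cyp21a1 passed in 3 and Shc2 in 2 of the 6 fits, and neither passed with the Fra2 libraries alone. DESeq2 called 12 of the 36, adding Mybl1, Nup62cl, Prdm16, Themis, Treh and Ypel4. With Fra2 controls 1 and 2 both left out, which leaves 1 Fra2 control whose spread is taken from the other groups, 3 genes passed, and Syt14, Cyp21a1 and Shc2 did not.

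**Figure D2:**
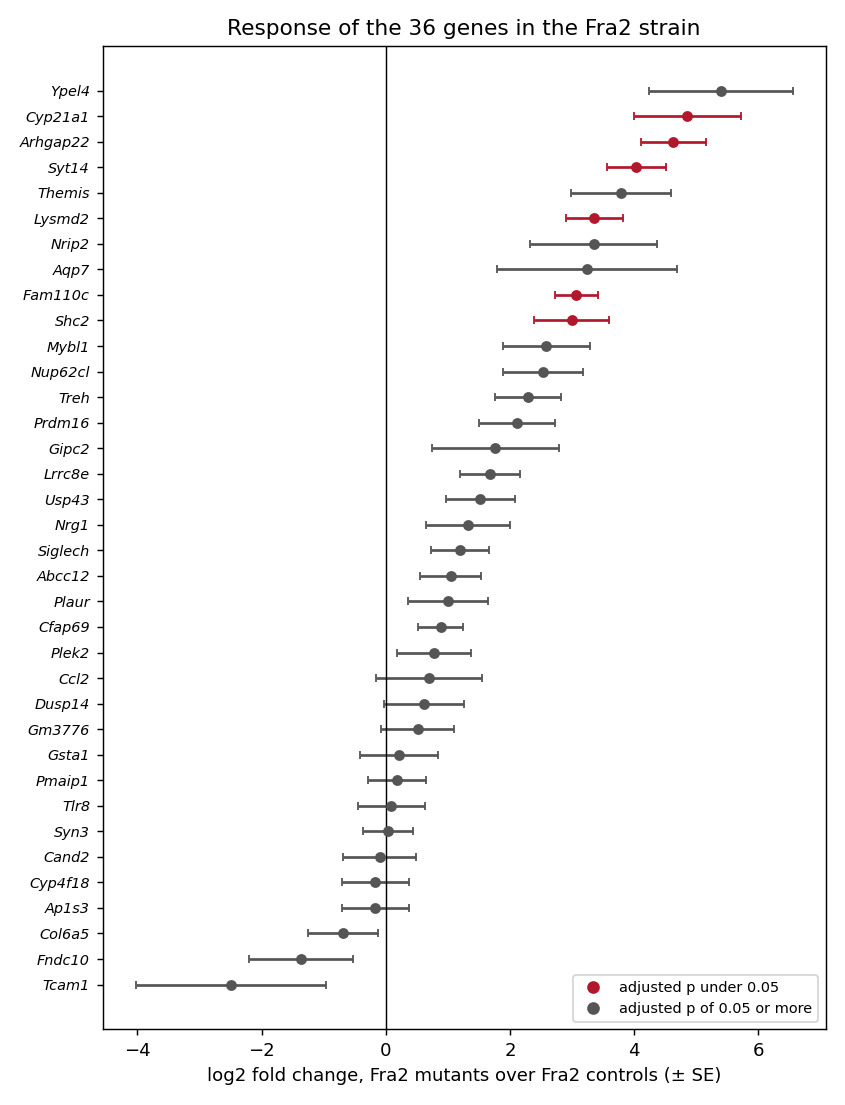
Log2 fold change of each of the 36 genes in Fra2 mutants over Fra2 controls, with its standard error, sorted by size. The 6 genes in red passed edgeR's test over all genes; 30 of the 36 lie right of 0, and Ypel4, the furthest right at 5.39, did not pass and had one of the widest errors.

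Among the proteins of the cytoskeleton, cilia and matrix, 2 of 5 rose in Fra2 mutants, against 0.845% of all tested genes. The role groups were made after the values were seen, so counts within them are no result about a class of genes. Fam110c (chromosome 12, 31073861 to 31080251, plus strand, GRCm38), whose human product is found at centrosomes and microtubules, had 3.44, 6.42 and 4.67 CPM in Fra2 mutants, against 0.542, 0.824 and 0.302 CPM in Fra2 controls. In the Fra1 libraries it had 4.80, 4.85 and 5.23 CPM in mutants and 0.178, 0.244 and 0.161 CPM in controls. The Fra2 groups did not overlap, the mutants of both strains reached similar levels, and the Fra2 controls all lay above the highest Fra1 control. The log2 fold change in Fra2 was 3.07 ± 0.34 (SE, adjusted p = 0.00177, edgeR), and its adjusted p was the smallest among the 36 genes.

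Arhgap22 (chromosome 14, 33214026 to 33369934, plus strand, GRCm38), a GTPase-activating protein that switches off the small GTPase Rac, had 8.49, 12.2 and 8.51 CPM in Fra2 mutants, against 0.380, 0.714 and 0.0503 CPM in Fra2 controls. The groups did not overlap, and the lowest control was control 3. Its log2 fold change was 4.63 ± 0.52 (SE, adjusted p = 0.00185, edgeR). The Fra1 mutants had 4.56, 7.11 and 4.30 CPM and their controls 0.119, 0.293 and 0.269 CPM. Arhgap22 was thus 1 of 3 genes, with Treh and Themis, whose Fra2 mutants all lay above all Fra1 mutants. Of its close relatives, neither Arhgap24 (log2 fold change -0.50 ± 0.26) nor Arhgap25 (0.64 ± 0.36) passed in the Fra2 strain.

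The other members of this group did not pass in Fra2. The ciliary gene Cfap69 (log2 fold change 0.89 ± 0.36, adjusted p = 0.375, edgeR) had Fra2 groups that did not overlap. The pleckstrin-family gene Plek2 (0.78 ± 0.59) and the collagen VI chain gene Col6a5 (-0.69 ± 0.57) had groups that did. Col6a5 averaged 0.202 CPM ± 0.039 (SD, n = 3) in Fra2 mutants and 0.317 ± 0.138 in their controls, both under the level of 1.20 CPM ± 0.194 in Fra1 mutants. It shares 572 bases of transcript at 96.9% identity with Col6a6, so the split of their reads is uncertain. The stellate cell and fibroblast list summed to 385 to 507 CPM in Fra1 mutants and 204 to 301 CPM in Fra1 controls, without overlap. In the Fra2 strain it summed to 231 to 368 CPM in mutants and 280 to 390 CPM in controls. The part of this list in the level of Col6a5 was not tested.

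Of 5 genes placed under membrane traffic and synaptic proteins, 2 rose in Fra2 mutants, against 0.845% of all tested genes. These were Syt14 and Lysmd2, and Lysmd2 was placed here although its role in mammals is little known. Syt14 (chromosome 1, 192891233 to 193035775, minus strand), a synaptotagmin-family membrane traffic protein known mainly from brain, had 1.55, 1.32 and 1.05 CPM in Fra2 mutants and 0.0542, 0.0550 and 0.101 CPM in Fra2 controls, which is 71 against 4 counts in sum. The groups did not overlap, and the spread among the Fra2 mutants was small beside the distance to the controls. Its log2 fold change was 4.03 ± 0.48 (SE, adjusted p = 0.00228, edgeR). In the Fra1 strain it had 3.97, 7.34 and 4.57 CPM in mutants and 0.119, 0.0489 and 0.0538 CPM in controls, so that all Fra2 mutants lay under all Fra1 mutants. Among 17 synaptotagmin genes, 8 passed the filter on low counts and Syt14 was the 1 that passed the test in Fra2; Syt12 had a log2 fold change of 2.09 ± 0.78 with an adjusted p of 0.314, and the other 6 ran from -0.68 to 0.30. The neuron list summed to 3.05 to 3.10 CPM in Fra2 mutants and 3.19 to 4.17 CPM in Fra2 controls, with Snap25 and Elavl4 at 0 in all 12 libraries.

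Lysmd2 (chromosome 9, 75625741 to 75637771, plus strand), a protein with a LysM domain whose role in mammals is little known, had 8.61, 8.12 and 8.35 CPM in Fra2 mutants, against 1.25, 0.934 and 0.201 CPM in Fra2 controls. The mutants were nearly equal and the controls uneven, with the lowest value in control 3. The log2 fold change was 3.36 ± 0.46 (SE, adjusted p = 0.00499, edgeR). Fra1 mutants had 10.1, 22.4 and 13.7 CPM and Fra1 controls 0.119, 0.195 and 0.161 CPM. Per kilobase of exon, Lysmd2 had the highest mean level of the 36 genes in Fra1 mutants, 9.98 CPM per kb, and in Fra2 mutants it had 5.42 CPM per kb, next to 5.92 for Treh. The related Lysmd1, Lysmd3 and Lysmd4 were all tested and had log2 fold changes of 0.13 ± 0.34, 0.43 ± 0.21 and -0.06 ± 0.17 in Fra2, none of which passed.

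Gipc2, a PDZ-domain protein, had 27.4, 4.41 and 21.0 CPM in Fra1 mutants and 0.475, 0.147 and 0.215 CPM in Fra1 controls, and the mutants were uneven. In Fra2 mutants it had 0.918, 4.33 and 0.630 CPM, against 1.36, 0.275 and 0.0503 CPM in Fra2 controls, where the groups overlap and mutant 2 was the highest (log2 fold change 1.77 ± 1.03, adjusted p = 0.579, edgeR). Syn3, a synapsin gene, and Ap1s3, a clathrin adaptor subunit whose name refers to adaptor complex AP-1 and not to the transcription factor, had Fra2 log2 fold changes of 0.03 ± 0.41 and -0.17 ± 0.54. Exons of Syn3 overlap Timp3 on the other strand, and 464 bases of Ap1s3 are shared at 97.6% identity with Gm8532, so their counts are uncertain.

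**Figure D3:**
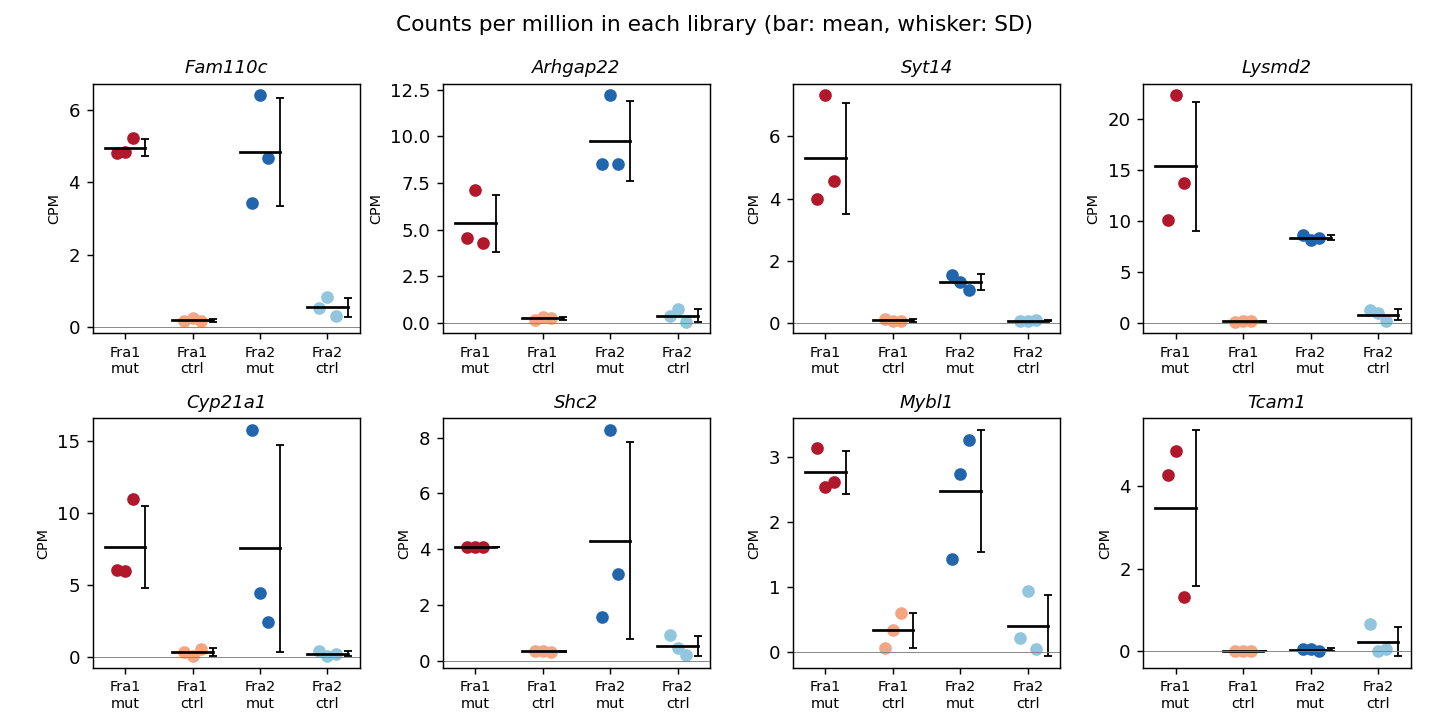
CPM of 8 genes in each of the 12 libraries, by group, with the group mean (bar) and SD (whisker) of 3 libraries; the vertical axes differ between genes. Fam110c, Arhgap22, Syt14 and Lysmd2 show separate Fra2 groups with a moderate spread, and Cyp21a1 and Shc2 show separate groups with uneven Fra2 mutants. Mybl1 did not pass in Fra2, and Tcam1 is near 0 in all Fra2 mutants.

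Of 8 transporters, channels and enzymes, 1 rose in Fra2 mutants, against 0.845% of all tested genes. Cyp21a1 (chromosome 17, 34801348 to 34804561, minus strand), a steroid hydroxylase of the adrenal cortex, had 15.8, 4.44 and 2.47 CPM in Fra2 mutants and 0.434, 0.110 and 0.201 CPM in Fra2 controls. The groups did not overlap, although mutant 1 was far above the other 2. Its log2 fold change was 4.86 ± 0.86 (SE, adjusted p = 0.0247, edgeR), and adjusted p was 0.0607, 0.122 and 0.108 without Fra2 control 1, 2 or 3. Cyp21a1 still passed when Fra2 mutant 1, 2 or 3 was left out. Fra1 mutants had 6.05, 6.01 and 10.9 CPM and their controls 0.356, 0.0489 and 0.592 CPM. Cyp21a1 shares 1182 bases of transcript at 97.4% identity with the pseudogene Cyp21a2-ps, so reads could be split between them.

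Treh, the trehalase of intestinal and renal brush borders, had 7.52, 19.8 and 9.09 CPM in Fra2 mutants, against 2.66, 0.769 and 3.62 CPM in Fra2 controls. It was not near-silent in the Fra2 controls, all of which lay above the highest Fra1 control (0.323 CPM). Its Fra2 groups did not overlap, but it did not pass (log2 fold change 2.30 ± 0.53, adjusted p = 0.0764, edgeR). In the Fra1 libraries it had 2.43, 4.96 and 2.50 CPM in mutants and 0.238, 0.244 and 0.323 CPM in controls. Treh overlaps Phldb1, which runs on the other strand and had a Fra2 log2 fold change of -0.11. The intestinal epithelium list, mostly Fabp2 and Lgals4, summed to 83.4 to 139 CPM in Fra2 mutants and 63.3 to 183 CPM in Fra2 controls. Cdx1 was at 0 in all 12 libraries. In the Fra1 strain the list summed to 58.7 to 84.4 CPM in mutants and 98.1 to 135 CPM in controls, without overlap. Cdh17 went the other way, with 0.474, 1.76 and 0.762 CPM in Fra1 mutants and 0, 0.147 and 0 CPM in Fra1 controls. Vil1 had 24.8, 1.21 and 8.66 CPM in Fra1 mutants and 0.238, 2.05 and 0.161 CPM in Fra1 controls. The part of this list in the level of Treh was not tested.

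The glutathione transferase gene Gsta1 had 1.21, 1.37 and 1.52 CPM in Fra2 mutants, against 1.25, 2.03 and 0.201 CPM in Fra2 controls, and these overlap (log2 fold change 0.21 ± 0.63, adjusted p = 0.944, edgeR). Fra1 mutants had 3.20, 8.38 and 8.33 CPM and Fra1 controls 0.535, 0.195 and 0.646 CPM. Gm3776 lies beside it on chromosome 9, shares 874 bases at 99.5% identity with it and had 0.423 CPM ± 0.0817 (SD, n = 3) in Fra2 mutants and 0.287 ± 0.120 in Fra2 controls. Since both also match Gsta2 at 97.2%, the split of reads among these genes is uncertain.

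Aqp7, a water and glycerol channel of adipose tissue, was high in 1 Fra2 mutant. It had 0.0574, 6.80 and 0.105 CPM in Fra2 mutants and 0.217, 0.385 and 0.101 CPM in Fra2 controls. Its fold change was 3.24 ± 1.45 on the log2 scale with all libraries and -1.46 without Fra2 mutant 2, passing in neither case. In the Fra1 strain it had 8.18, 2.37 and 1.31 CPM in mutants and 1 count in each control, a ratio of summed counts of 71.5 (95% counting interval 24.1 to 350). The volume-regulated channel subunit gene Lrrc8e (log2 fold change 1.68 ± 0.48, adjusted p = 0.157) had Fra2 groups that did not overlap. The ABC transporter gene Abcc12 (1.04 ± 0.49) and the fatty acid hydroxylase gene Cyp4f18 (-0.17 ± 0.54) had overlapping groups and did not pass.

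Of 11 signalling ligands, receptors and adaptors, 1 rose in Fra2 mutants, against 0.845% of all tested genes. Shc2 (chromosome 10, 79618051 to 79637918, minus strand), an adaptor that couples receptor tyrosine kinases to Ras and is known mainly from neurons, had 1.55, 8.28 and 3.10 CPM in Fra2 mutants and 0.922, 0.440 and 0.201 CPM in Fra2 controls. The groups did not overlap, and mutant 2 was well above the other 2. The log2 fold change was 3.00 ± 0.60 (SE, adjusted p = 0.0420, edgeR). Leaving out Fra2 control 2 gave an adjusted p of 0.158 and leaving out control 3 gave 0.134. It was 0.124 when mutant 2 was left out, 0.0756 when mutant 3 was, and 0.0778 with the replicate number as a block. The Fra1 mutants had 4.09, 4.08 and 4.08 CPM and the Fra1 controls 0.356, 0.342 and 0.323 CPM, and the SD of 0.00425 CPM among its Fra1 mutants was the smallest of the 36 genes.

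Themis, a signalling protein of developing T cells, had 2.64, 8.56 and 2.00 CPM in Fra2 mutants, against 0.271, 0.550 and 0.101 CPM in Fra2 controls. These groups did not overlap; they differed by 3.78 ± 0.80 (SE) on the log2 scale. The adjusted p was 0.0544 by edgeR, and 0.0453 with the replicate number as a block. In the Fra1 strain Themis had 1.54, 1.21 and 1.63 CPM in mutants and 0, 0.586 and 0.215 CPM in controls. The T and NK cell list (Cd3e, Cd3d, Cd4, Cd8a and 4 others) summed to 6.03 to 8.49 CPM in Fra2 mutants and 5.11 to 7.86 CPM in Fra2 controls, with no gene of the list at 0 in all 3 libraries of either group. In the Fra1 strain the list summed to 7.05 to 11.97 CPM in mutants and 5.35 to 6.62 CPM in controls, ranges that do not overlap, and its part in the level of Themis was not tested. None of its 5 tested genes passed in Fra2; Cd3e and Cd3d had log2 fold changes of 0.26 ± 0.36 and -0.13 ± 0.47.

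Tcam1, an adhesion molecule known from testis, was detected in the Fra1 mutants alone at any level above 1 CPM. It had 4.27, 4.85 and 1.31 CPM in Fra1 mutants and no count in Fra1 controls, so it was at least 64.2-fold higher in mutants, taking a floor of 3 counts over the control group. In the Fra2 strain it had 1, 1 and 0 counts in mutants, against 12, 0 and 1 counts in controls. Its Fra2 log2 fold change of -2.50 ± 1.53 (adjusted p = 0.618, edgeR) rested on control 1, the Fra2 control with 11 Fosl1 counts, and was 0.34 without it. Of 8 testis germ cell markers, Tnp1, Acrv1, Prm1 and Prm2 had no count in any library.

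Fndc10, a small membrane protein with a fibronectin domain, had 7.59, 2.15 and 4.08 CPM in Fra1 mutants and 0.178, 0.147 and 0.323 CPM in Fra1 controls. The Fra2 mutants had 1.15, 0.219 and 0.158 CPM and the Fra2 controls 0.434, 2.69 and 0.704 CPM, overlapping, with the highest value in control 2 (log2 fold change -1.36 ± 0.83, adjusted p = 0.604, edgeR). Nrg1, a ligand of ErbB receptors, had 7.76, 2.48 and 5.17 CPM in Fra1 mutants and 0.119, 0.489 and 0.807 CPM in Fra1 controls. In Fra2 it had 0.804, 2.30 and 0.788 CPM in mutants, against 0.868, 0.275 and 0.352 CPM in controls, and did not pass (1.32 ± 0.67, adjusted p = 0.501, edgeR). Dusp14, a phosphatase that acts on MAP kinases, had 2.35, 2.58 and 3.36 CPM in Fra2 mutants and 0.434, 0.934 and 3.72 CPM in Fra2 controls. The high value of control 3 kept these groups from separating (0.62 ± 0.64, adjusted p = 0.795, edgeR).

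The immune-related members did not pass in Fra2. The chemokine gene Ccl2 had 2.07, 2.63 and 2.63 CPM in Fra2 mutants, against 0.759, 3.52 and 0.151 CPM in Fra2 controls. The urokinase receptor gene Plaur averaged 0.813 CPM ± 0.552 (SD, n = 3) in Fra2 mutants and 0.394 ± 0.232 in Fra2 controls. Siglech, a lectin gene of plasmacytoid dendritic cells, had 0.631, 1.04 and 0.630 CPM in Fra2 mutants, above the 0.325, 0.495 and 0.151 CPM of Fra2 controls (log2 fold change 1.20 ± 0.47, adjusted p = 0.343, edgeR). The endosomal RNA receptor gene Tlr8 had 1.21 to 1.26 CPM in Fra2 mutants and 0.220 to 1.79 CPM in Fra2 controls. The macrophage and Kupffer cell list summed to 236 to 369 CPM in Fra2 mutants and 142 to 370 CPM in Fra2 controls, and to 228 to 280 CPM in Fra1 mutants and 166 to 313 CPM in Fra1 controls. None of its 8 genes was at 0 in all 3 libraries of a group, and none passed in Fra2, and its part in these values was not tested. The neutrophil list summed to 8.12 to 9.76 CPM in Fra2 mutants and 4.02 to 6.45 CPM in Fra2 controls, which do not overlap, and to 4.86 to 9.43 CPM in Fra1 mutants and 3.09 to 5.97 CPM in Fra1 controls. Its 3 tested genes, Csf3r, S100a8 and S100a9, had positive Fra2 log2 fold changes of 0.69, 0.42 and 0.89 and did not pass, and the part of neutrophils in these values was not tested either. The BH3-only apoptosis gene Pmaip1 had 1.31 to 1.43 CPM in Fra2 mutants and 0.659 to 1.76 CPM in Fra2 controls.

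Of 7 genes for gene regulation and protein turnover, none passed in Fra2. The log2 fold change was positive for 6 of the 7, against 49.1% of all tested genes. Every Fra2 mutant lay above every Fra2 control for 5 of the 7, against 12.5% of all tested genes. This group, like the other role groups, was made after the values were seen. Mybl1, the A-Myb transcription factor needed for meiosis in the male mouse, had 1.43, 2.74 and 3.26 CPM in Fra2 mutants and 0.217, 0.934 and 0.0503 CPM in Fra2 controls. It differed by 2.59 ± 0.71 (SE) on the log2 scale, and the adjusted p was 0.139 by edgeR. Of the 6 fits without 1 Fra2 library, Mybl1 passed in 1, without control 2, its highest Fra2 control (adjusted p = 0.0419, edgeR). In the others its adjusted p ran from 0.160 to 0.337 by edgeR. In the Fra1 strain it had 3.14, 2.54 and 2.61 CPM in mutants and 0.0594, 0.342 and 0.592 CPM in controls. Its relatives Myb and Mybl2 did not pass the filter on low counts. The cell cycle list (Mki67, Top2a and 6 others) summed to 10.1 to 11.3 CPM in Fra2 mutants and 6.04 to 14.6 CPM in Fra2 controls, with none of its 6 tested genes passing.

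Ypel4, of a small family of zinc-binding nuclear proteins, had 0.746, 8.17 and 1.21 CPM in Fra2 mutants, against 0.0542, 0.110 and 0.0503 CPM in Fra2 controls. The groups did not overlap, with mutant 2 far above the rest; the log2 fold change of 5.39 ± 1.16 had an adjusted p of 0.0572 by edgeR. Fra1 mutants had 2.49, 5.79 and 4.41 CPM and Fra1 controls 0.416, 0.0489 and 0.0538 CPM. Nup62cl had 2.07, 4.77 and 2.52 CPM in Fra2 mutants and 0.705, 0.495 and 0.352 CPM in Fra2 controls, which did not overlap (2.53 ± 0.65, adjusted p = 0.117, edgeR). Usp43, a deubiquitinase, had 5.22, 5.02 and 4.41 CPM in Fra1 mutants and 0.0594, 0.0977 and 0.215 CPM in Fra1 controls. Its Fra2 mutants, at 0.459, 1.59 and 0.683 CPM, overlapped the Fra2 controls at 0.488, 0.330 and 0.101 CPM (1.52 ± 0.55, adjusted p = 0.299, edgeR).

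Prdm16, a chromatin regulator of brown fat and stem cells, had 2.58, 0.877 and 2.78 CPM in Fra2 mutants and 0.759, 0.220 and 0.402 CPM in Fra2 controls (2.11 ± 0.60 on the log2 scale, adjusted p = 0.158, edgeR). Nrip2, a nuclear receptor interacting protein, had 0.746, 1.37 and 0.315 CPM in Fra2 mutants and 0.0542, 0.0550 and 0.101 CPM in Fra2 controls (3.35 ± 1.02, adjusted p = 0.191, edgeR). Its exons overlap Itfg2 on the other strand, and it shares 556 bases at 99.3% identity with the overlapping Gm44596. Cand2, a cullin-associated protein of muscle, had 0.772 CPM ± 0.521 (SD, n = 3) in Fra2 mutants and 0.809 ± 0.477 in Fra2 controls, and its exons overlap the ribosomal protein gene Rpl32 on the other strand.

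Across the set, the Fra2 mutants were mostly below the Fra1 mutants, an order that the choice of genes favours, since it asked for high values in the Fra1 mutants. The Fra2 mutants lay below all Fra1 mutants for 19 genes, overlapped them for 14 and lay above them for 3. The same split was not computed over all tested genes, so these counts describe the set only. The ratio of mean CPM, Fra2 mutants over Fra1 mutants, had a median of 0.544 and was above 1 for 6 genes. It was 3.68 for Treh, 3.01 for Themis and 1.83 for Arhgap22, close to 1 for Cyp21a1 (0.987), Fam110c (0.977) and Shc2 (1.06), and lowest for Tcam1 (0.0108), Fndc10 (0.110), Gipc2 (0.111), Col6a5 (0.169) and Usp43 (0.187).

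**Figure D4:**
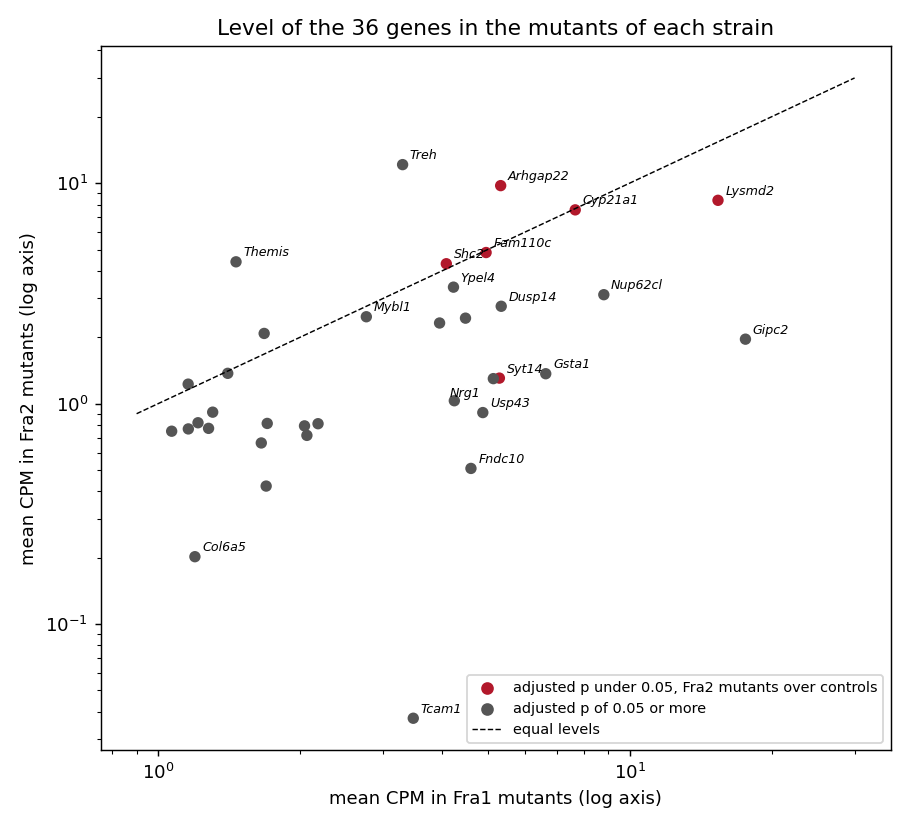
Mean CPM of each of the 36 genes in Fra2 mutants (vertical, log axis) against Fra1 mutants (horizontal, log axis), with the line of equal levels; genes that passed the test in the Fra2 strain are red. Most points lie under the line, Treh, Themis and Arhgap22 lie above it, and Tcam1 is the lowest at 0.0374 CPM in Fra2 mutants.

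The Fra2 controls were less silent than the Fra1 controls for these genes, which the choice of genes also favours. The 36 genes summed to 77.3, 121 and 70.2 CPM in the 3 Fra2 mutants, against 26.7, 23.2 and 17.9 CPM in the 3 Fra2 controls. The mean was above 0.5 CPM in the Fra2 controls for 16 of the 36. At 1 CPM or more stood 20, 25 and 19 genes in the Fra2 mutants, against 10, 4 and 4 genes in the Fra2 controls. Fra2 control 1 was the highest Fra2 control for 19 of the genes, control 2 for 12 and control 3 for 5. Leaving out control 1 gave 34 positive fold changes of 36 and a median of 1.68 on the log2 scale, leaving out control 2 gave 28 and 1.51, and leaving out control 3 gave 29 and 1.13.

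The Fra2 mutants were uneven as well. Mutant 2 was the highest for 18 of the 36 genes. For 15 genes the highest mutant was over 2 times the mean of the other 2, and in 10 of these it was mutant 2, among them Ypel4, Shc2, Themis, Gipc2, Treh and Aqp7. Without mutant 2 the median log2 fold change of the 36 genes was 0.78, against 1.26 with it, and 28 of them were positive. The 4 genes Fam110c, Arhgap22, Syt14 and Lysmd2 had no such uneven mutant and passed without it.

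When the same 2 thresholds were applied to the Fra2 libraries, 16 of the 21926 protein-coding genes met them. Of these, 5 were among the 36 (Mybl1, Syt14, Themis, Arhgap22 and Cyp21a1), which is 13.9% of the 36 genes and 31.2% of the 16. Another 3, Inava, Hkdc1 and Cdhr2, were among the genes left out by name. With these counted, 8 genes met the rule in both strains, 18.2% of the 44 and 50% of the 16.

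The 36 genes lay on 16 chromosomes, and their neighbours were examined in the Fra2 strain. Among 96 tested protein-coding genes that started within 100000 bases of a member and were no members themselves, 1 rose in Fra2 mutants (1.04%, against 0.845% of all tested genes) and none fell. The 1 that rose was Gsta2, near Gm3776. The median Fra2 log2 fold change of these neighbours was 0.02. Exons of 7 of the 36 genes overlapped exons of another tested gene, in each case on the other strand, and none of these partners passed in Fra2. The sources used here do not say whether reads were counted by strand, so counts of Cand2, Cyp4f18, Nrip2, Shc2, Syn3, Treh and Usp43 may hold reads of their partners.

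Of 14 genes for AP-1 subunits and their bZIP partners, 13 were tested, and the transgene's own gene Fosl2 (log2 fold change 4.02 ± 0.44) and the small Maf gene Mafk (1.25 ± 0.20) rose in Fra2 mutants. None fell. Among 12 genes known as AP-1 targets in other tissues, Plaur being the member they share with the set, 10 were tested and none passed, with log2 fold changes from -0.19 for Plau to 1.49 for Lgals3.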

How the data were processed

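Liver RNA from 12 mice was read from the table of raw gene counts that the authors deposited. Per the labels' protocols, the libraries were poly(A)-selected and stranded (dUTP). The submitters' processing notes name STAR 2.6.1a, RSEM, bedtools 2.27.1, DESeq2 1.22.2 and GRCm38; those sources do not say which program made the counts, or its strand setting.

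The members and gene lists were chosen with earlier results of these data known, and the role groups after the values were seen. Levels are CPM over each library's total. Of 55421 rows, 14076 passed edgeR's filter by group (minimum count 10, minimum total 15), all 36 members among them. Fold changes are from edgeR 4.0.16 (R 4.3.3) with TMM factors: 4 group means over all 12 libraries, robust quasi-likelihood, two-sided, with Benjamini-Hochberg adjustment over all tested genes and a call at 0.05. The Fra1 contrast was not tested. The code was tested on simulated data. Controls were littermates of the mutants, and p-values measure the spread between these mice. No replicate pair was near sampling noise. Alternatives were DESeq2 1.42.0, limma-voom (limma 3.58.1), RLE or no scaling factors, other filters, the Fra2 libraries alone, a replicate block and left-out libraries. Named in full were the 4 marker genes, the 10 members highest in Fra1 mutants, the 10 highest in Fra2 mutants, the 10 with the smallest adjusted p and the 5 with the lowest ratio of Fra2 to Fra1 mutants; other members were added by role. Coordinates are from GENCODE on GRCm38, with 55154 of 55421 identifiers matched. Of the genes just outside the thresholds, 1 is not reported here.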

Additional observations from a re-analysis of the deposited data

How the results depend on the processing

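The count of members that rose in Fra2 mutants was 6, and it was 12 with DESeq2, 3 without Fra2 controls 1 and 2, and 4 to 7 when 1 library was left out; no member fell under any alternative run. Over all tested genes, 119 rose and 31 fell; DESeq2 gave 315 and 133, the Fra2 libraries alone 71 and 19, and the fit without Fra2 controls 1 and 2 gave 41 and 9. Leaving out 1 library gave 45 to 85 that rose and 7 to 29 that fell. The share of calls that were higher was 79.3%, and 70.3% with DESeq2. The replicate block gave 6 members, and 87 genes that rose and 24 that fell. Same-numbered libraries correlated at -0.07, 0.05 and 0.05 in Fra1 and at 0.06, 0.03 and -0.12 in Fra2. These values gave no sign that the numbers pair the samples, but 3 libraries per group are too few to settle it. Of 540 fold changes of single members under an alternative, 494 kept direction and side of the threshold, 16 lost the call, 9 gained it and 21 reversed, none of the reversed called. Reversed on the log2 scale were, without Fra2 control 1, Ap1s3 (0.12), Cand2 (0.35), Cyp4f18 (0.53) and Tcam1 (0.34); without control 2, Ap1s3 (0.07), Syn3 (-0.31), Pmaip1 (-0.10) and Tlr8 (-0.39); and without control 3, Gsta1 (-0.29). Without mutant 1 these were Ap1s3 (0.15) and Cand2 (0.36), without mutant 2 Aqp7 (-1.46) and Syn3 (-0.09), and with limma-voom Cyp4f18 (0.021). Without controls 1 and 2 they were Ap1s3 (1.39), Cand2 (1.24), Cyp4f18 (0.27), Syn3 (-0.015), Dusp14 (-0.53), Pmaip1 (-0.46) and Tlr8 (-0.20). The cause was not tested. With 1 library left out, the lowest and highest log2 fold changes of these genes were -0.84 and 0.15 for Ap1s3, -1.46 and 3.80 for Aqp7, -0.48 and 0.36 for Cand2, -0.49 and 0.53 for Cyp4f18, -0.29 and 0.88 for Gsta1, -0.31 and 0.45 for Syn3, -3.06 and 0.34 for Tcam1, -0.10 and 0.67 for Pmaip1 and -0.39 and 0.58 for Tlr8. With CPM on TMM library sizes the rule found 29 genes, and with a control threshold of 0.25 CPM it found 11. Members near 1 count per library in the controls are limited by depth.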
